A study of Mus musculus with 24 samples.

Results

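The expression profile of common lymphoid progenitors (CLPs) that lack PLCgamma1 was compared with that of wild-type CLPs. The comparison used 6 of the 24 RNA-seq libraries of the study, chosen by their labels alone. They were the 3 CLP libraries of genotype PLCgamma1-/-PLCgamma2+/+, called Plcg1-/- below, and the 3 of genotype PLCgamma1+/+PLCgamma2+/+, called wild type. The study asked which genes in CLPs and B cell progenitors depend on the PLCgamma isoforms, with 4 genotypes of 3 mice each in both populations. All donors, wild type included, were adult mice that carried the MxCre and Rosa-YFP transgenes on a mixed 129xC57BL/6 background and were treated with poly(I-C). The mice of the study included both sexes, and no sex is given per library. In the 6 libraries compared here, sex-linked transcripts divided by genotype, as described below. In the Plcg1-/- donors both Plcg1 alleles were floxed, so that the deletion was made by Cre from the interferon-inducible Mx promoter and was not restricted to lymphoid cells. Bone marrow was transplanted into lethally irradiated CD45.1+ recipients, and several weeks later CD45.2+Lin-IL-7R+ cells were sorted as CLPs. The number of donors per genotype is not stated in the sources used here, and p-values therefore measure the spread between recipients. The 4 genotypes were also read in B cell progenitors (B220+IgM-IL-7R+), whose libraries share a code in their titles with the CLP libraries and were taken as sorted from the same recipients, and in CLPs the genotypes Plcg2-/- and Plcg1-/-Plcg2-/- (double-deficient) gave a comparison of PLCgamma1 loss that shares no library with the one described here.

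PLCgamma1 is a phospholipase that receptors and their tyrosine kinases switch on at the membrane. It splits a phosphoinositide into inositol trisphosphate, which opens calcium stores, and diacylglycerol, which recruits protein kinase C and RasGRP proteins. CLPs give rise to B, T, NK and other innate lymphoid cells. They depend on the IL-7 receptor, whose signal passes through Jak1, Jak3 and Stat5, and B lineage fate is set in them by Tcf3, Ebf1 and Pax5.

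PLCgamma1 loss was accompanied by 1 called change in CLPs. After filtering on low counts 15209 genes were tested by edgeR (quasi-likelihood F test, Benjamini-Hochberg corrected). Only BC002163 reached an adjusted p of 0.05 with a log2 fold change beyond 0.5 in either direction, which is 0.00658% of the genes tested. An unadjusted p under 0.05 was seen for 434 genes (2.85%), of which 233 were higher (1.53%) and 201 lower (1.32%) in Plcg1-/- CLPs. DESeq2 on the same libraries called 16 genes (0.105%), of which 6 were sex-linked. In 1 draw of simulated counts with no gene changed DESeq2 made 13 calls and edgeR 0. The simulation drew each gene independently with dispersions from edgeR. It did not carry the differences in composition between these libraries, so it does not give the share of false calls among the 16. In simulated counts for this comparison, edgeR recovered 26% of genes changed 2-fold and 59% of genes changed 4-fold, so that a gene that was not called is not thereby shown to be unchanged. The median log2 fold change over all genes was -0.01.

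BC002163, annotated by GENCODE as a processed pseudogene on the plus strand of chromosome 16 (chr16:42955631-42955949, mm10), is a copy of the Ndufs5 transcript, which encodes a small accessory subunit of mitochondrial complex I. Gm5801, the gene with the next smallest p, is a processed pseudogene on the minus strand of chromosome 14 (chr14:56010536-56011315) and a copy of Ube2j2, which encodes a ubiquitin-conjugating enzyme of the endoplasmic reticulum. The sequences are shown because reads of a copy and of its parent can be parted only where the letters differ. They come from the GENCODE M21 transcripts of GRCm38, the assembly that mm10 holds, and capitals mark the bases at which copy and parent differ. The shown parts are 300 bases of BC002163 (chr16:42955631-42955930, plus strand) and 240 bases of Gm5801 (chr14:56010581-56010820, minus strand), each above the same stretch of its parent.
BC002163: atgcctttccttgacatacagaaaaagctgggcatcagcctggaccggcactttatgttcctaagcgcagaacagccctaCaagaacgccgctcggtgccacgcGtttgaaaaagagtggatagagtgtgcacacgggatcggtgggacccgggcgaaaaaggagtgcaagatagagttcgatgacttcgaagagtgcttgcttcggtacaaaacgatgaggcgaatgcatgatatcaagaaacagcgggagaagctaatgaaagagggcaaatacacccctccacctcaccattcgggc
Ndufs5: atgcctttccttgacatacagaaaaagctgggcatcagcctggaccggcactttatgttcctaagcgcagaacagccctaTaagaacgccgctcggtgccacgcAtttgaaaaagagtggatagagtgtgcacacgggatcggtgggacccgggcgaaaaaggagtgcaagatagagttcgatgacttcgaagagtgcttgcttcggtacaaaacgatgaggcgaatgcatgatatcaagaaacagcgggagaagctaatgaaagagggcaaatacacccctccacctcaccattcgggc
Gm5801: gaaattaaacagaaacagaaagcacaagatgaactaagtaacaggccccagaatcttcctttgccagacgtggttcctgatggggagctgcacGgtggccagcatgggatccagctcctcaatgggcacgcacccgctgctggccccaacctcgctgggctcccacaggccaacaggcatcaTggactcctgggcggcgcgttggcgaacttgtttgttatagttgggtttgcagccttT
Ube2j2: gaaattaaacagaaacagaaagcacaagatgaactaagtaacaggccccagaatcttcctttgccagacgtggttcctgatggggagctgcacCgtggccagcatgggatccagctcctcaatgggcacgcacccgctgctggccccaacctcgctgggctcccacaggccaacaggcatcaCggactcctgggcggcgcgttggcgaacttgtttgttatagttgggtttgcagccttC
Over its 319 bases BC002163 differed from Ndufs5 at 2 positions, T81C and A105G, where the parent's base comes before the position and the copy's base after it, counted from 1 at the 5′ end of the copy. Its identity with the parent was 99.4%. Gm5801 differed from Ube2j2 at 6 of 780 positions, of which C589G, C678T and C735T lie in the stretch shown, an identity of 99.2%.

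In wild-type CLPs BC002163 had 5.14, 6.77 and 6.25 normalised CPM, that is, reads scaled to a common library size after TMM. In Plcg1-/- CLPs it had 0.954, 0.818 and 0.693 normalised CPM. The groups were far apart and each was tight, with 28 to 208 reads per wild-type library and 7 to 17 reads per Plcg1-/- library. Expression of BC002163 fell from 6.05 ± 0.83 (SD, n = 3) to 0.822 ± 0.131 (SD, n = 3), or by -2.85 on the log2 scale (SE, the standard error, 0.27; edgeR adjusted p = 0.00543). Over the alternatives its log2 fold change lay between -3.15 and -2.76 and its adjusted p between 1.09e-13 and 0.667. The call was lost without Plcg1-/- replicate 2 (edgeR adjusted p = 0.0821) or replicate 3 (0.0774), without both libraries described below as high in basophil genes (0.134), with all libraries thinned to the smallest (0.116), and with edgeR on the 6 libraries alone (0.667). Ndufs5 itself was listed with 0 to 11 reads in these 6 libraries, too few to be tested. The program that counted the reads is not given in the sources used here, so how reads of Ndufs5 mRNA were divided between the gene and its copy is not known, and the value of BC002163 is uncertain as a measure of either.

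In B cell progenitors BC002163 had 9.89, 7.64 and 7.42 normalised CPM in wild type and 1.12, 2.47 and 0.347 in Plcg1-/-. These groups did not overlap either, but the log2 fold change of -2.60 (SE 0.47) missed the threshold (edgeR adjusted p = 0.142). In CLPs without PLCgamma2 the order was the opposite. Plcg2-/- CLPs had 4.62, 5.38 and 4.61 normalised CPM and double-deficient CLPs 7.14, 5.86 and 7.22, so that the libraries without PLCgamma1 were the higher ones there. The log2 fold change of double-deficient over Plcg2-/- CLPs was 0.47 (edgeR adjusted p = 0.699), and the difference between both effects of PLCgamma1 loss, tested as an interaction, was 3.32 on the log2 scale (SE 0.36, edgeR adjusted p = 0.00851).

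Gm5801 had 2.97, 4.35 and 2.73 normalised CPM in wild-type CLPs and 0.298, 0.337 and 0.099 in Plcg1-/- CLPs. The groups did not overlap, although the Plcg1-/- values rest on 1 to 7 reads per library. Its log2 fold change of -3.63 (SE 0.49) gave adjusted p-values of 0.0946 in edgeR and 3.12e-06 in DESeq2, within a range of 3.12e-06 to 0.960 over the alternatives. It was as low in Plcg2-/- CLPs, at 0.171, 0.356 and 0.22, and near the wild-type range in double-deficient CLPs, at 2.66, 4.39 and 3.96. There it rose with PLCgamma1 loss, with a log2 fold change of 3.78 (edgeR adjusted p = 0.0385), a call lost in 8 of 14 alternatives, and the interaction was 7.41 (SE 0.71, edgeR adjusted p = 0.00548). Its parent Ube2j2 lay between 9.10 and 15.5 normalised CPM in the 6 libraries, with a log2 fold change of 0.11.

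**Figure D1:**
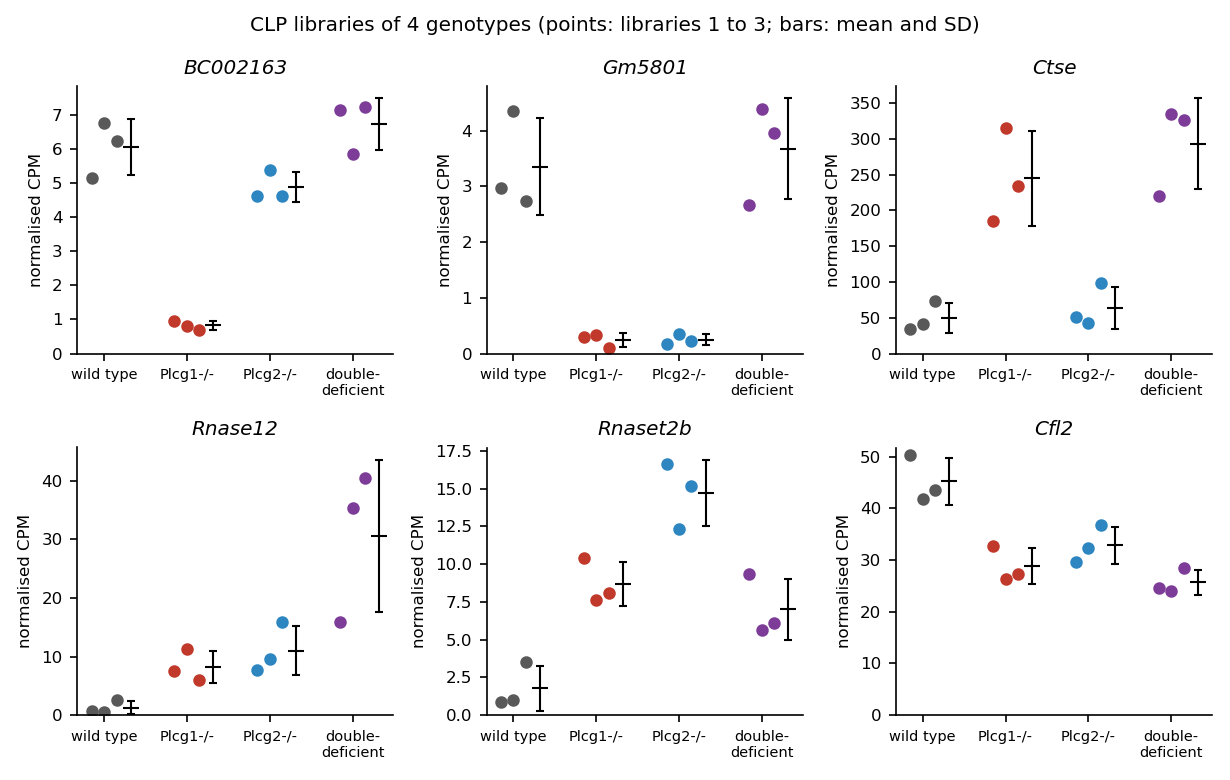
Normalised CPM (vertical axis, linear from 0) of 6 genes in the 12 CLP libraries of 4 genotypes; each point is 1 library, and the black mark is the mean with its SD (n = 3). BC002163 sat below 1 in the 3 Plcg1-/- libraries and above 4 in the other 9, Gm5801 was low in both single-deficient genotypes, and Ctse was high in the 6 libraries without PLCgamma1.

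Ctse, which encodes the intracellular aspartic protease cathepsin E, led the genes with higher values. It had 34.3, 41.3 and 74.0 normalised CPM in wild-type CLPs and 185, 315 and 234 in Plcg1-/- CLPs. Every Plcg1-/- library was above every wild-type one, 4.91-fold in the means. The log2 fold change of 2.29 (SE 0.37) had an unadjusted p of 6.55e-05 and an adjusted p of 0.332 from edgeR, and DESeq2 called it (adjusted p = 3.51e-06). In B cell progenitors Ctse had 20.5, 32.1 and 58.8 normalised CPM in wild type and 173, 166 and 209 in Plcg1-/-, and there it rose with the same log2 fold change of 2.29 (edgeR adjusted p = 0.047). The call was lost in 7 of 14 alternatives, where the adjusted p reached 0.472. CLPs without PLCgamma2 showed 220, 335 and 326 in double-deficient libraries, all above the Plcg2-/- libraries, which were all below 100 normalised CPM. That log2 fold change was 2.21 (edgeR adjusted p = 0.106, or 0.0156 in the fit with the replicate block), and it differed from the one in CLPs with PLCgamma2 by -0.08 (SE 0.50). In each of the 3 comparisons every library without PLCgamma1 was thus above every library with it for Ctse. Of these comparisons 1 passed the test as fitted without a block. The CLP values chose the gene, and the B cell progenitor libraries were taken as sorted from the same recipients. PLCgamma1 loss and donor sex cannot be told apart in any of the 3 comparisons.

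A pair of ribonuclease genes followed. Rnase12, a member of the ribonuclease A family, had 0.724, 0.484 and 2.58 normalised CPM in wild-type CLPs and 7.57, 11.3 and 5.94 in Plcg1-/- CLPs. Its log2 fold change was 2.49 (SE 0.56, edgeR adjusted p = 1, 0.0103 from DESeq2). It rose in B cell progenitors, from 0.865 ± 0.294 to 5.93 ± 0.437 (SD, n = 3 each), with a log2 fold change of 2.76 (edgeR adjusted p = 0.0107), a call lost in 7 of 14 alternatives. In CLPs the range of Plcg2-/- libraries overlapped that of Plcg1-/- ones, at 7.69 to 15.8, and double-deficient libraries were higher still, at 15.9 to 40.5. Rnaset2b, a lysosomal ribonuclease of the T2 family, had 0.869, 0.967 and 3.48 in wild-type and 10.4, 7.65 and 8.12 in Plcg1-/- CLPs, a log2 fold change of 2.17 (SE 0.46, edgeR adjusted p = 0.956, 0.00917 from DESeq2). Its near-identical neighbour Rnaset2a was listed at 0 reads in all 6 libraries, so the division of reads between them is uncertain. Without PLCgamma2 the order of Rnaset2b turned round, with 12.4 to 16.6 in Plcg2-/- CLPs and 5.60 to 9.32 in double-deficient ones (log2 fold change -1.07, edgeR adjusted p = 0.621).

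The genes to describe were those called by either tool and the 12 genes in each direction with the smallest p among genes without overlap between the 3 Plcg1-/- and the 3 wild-type libraries. Such a separation was seen for 463 genes with higher values (3.04% of those tested) and 501 with lower ones (3.29%). Besides Ctse, Rnase12 and Rnaset2b, the 12 higher genes were Ifitm2, Fam132a, Rusc2, Kcnj10, Ubd, Cldn1, Cebpb and the X-linked genes Kdm6a and Xist. None of them passed edgeR's test. Ifitm2, which encodes an interferon-induced protein that hinders virus entry, had 66.0, 57.8 and 79.0 normalised CPM against 108, 113 and 96.7 in Plcg1-/- CLPs, a log2 fold change of 0.65 (SE 0.14). Without PLCgamma2 its log2 fold change was 0.72 (edgeR adjusted p = 0.219). Fam132a, which encodes the secreted C1q-like protein adipolin, stood at 11.7, 11.8 and 17.4 against 29.9, 29.1 and 28.3, and Cebpb, a basic leucine zipper factor of myeloid cells, at 61.1, 30.2 and 68.9 against 103, 140 and 92.6. Their log2 fold changes were 1.08 and 1.05, and -0.29 and 0.32 without PLCgamma2. Kcnj10, a potassium channel, Rusc2, a vesicle adaptor, Cldn1, a tight junction protein, and Ubd, a ubiquitin-like modifier, were expressed below 10 normalised CPM in each library, with log2 fold changes of 1.66, 1.39, 1.80 and 2.26.

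The lower genes described here were BC002163, Gm5801, the Y-linked genes Ddx3y, Eif2s3y, Uty and Kdm5d, and Cfl2, Pgls, Cdk5rap1, Ccdc23 and Lyg2. Cfl2, which encodes an actin-severing cofilin, had 50.4, 41.8 and 43.6 normalised CPM in wild type and 32.7, 26.3 and 27.2 in Plcg1-/- CLPs. The log2 fold change was -0.66 (SE 0.15, edgeR adjusted p = 1, 0.0387 from DESeq2), and -0.78 in B cell progenitors, where 58.4, 58.1 and 56.3 stood against 34.2, 33.9 and 32.8 (edgeR adjusted p = 0.123). Cfl2 was therefore lower in each Plcg1-/- library than in each wild-type library of its own population. As with Ctse, the CLP values chose the gene, and the B cell progenitor libraries were taken as sorted from the same recipients. Pgls, an enzyme of the pentose phosphate pathway, had 299, 430 and 321 against 242, 231 and 251 in CLPs, a log2 fold change of -0.53. Cdk5rap1, which modifies mitochondrial tRNAs, and Ccdc23 had log2 fold changes of -0.71 and -0.44, and Lyg2, a lysozyme-like gene, was under 2 normalised CPM in each library.

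**Figure D2:**
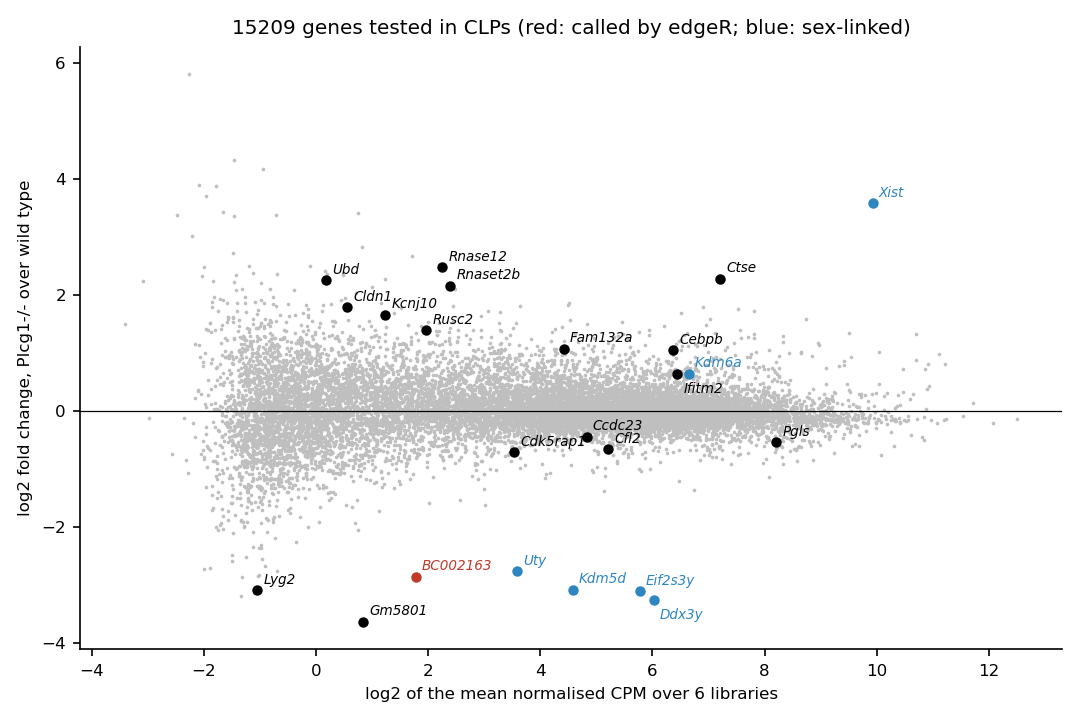
Log2 fold change of Plcg1-/- over wild-type CLPs (vertical axis) against the log2 of the mean normalised CPM over the 6 libraries (horizontal axis) for the 15209 genes tested; grey points are genes, and the leading genes described in the text are labelled. BC002163 (red) is the gene called by edgeR, the sex-linked genes (blue) lie at both extremes, and Ctse lies at 2.29.

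Outside the sex-linked genes, the leading genes were followed into the other population and into the other CLP libraries. Of the 10 higher genes, 10 were also higher in Plcg1-/- B cell progenitors, 3 of them at an unadjusted p under 0.05, and 2 of them (Ctse and Rnase12) called. Of the 8 lower genes, 7 were lower in B cell progenitors, 5 at that p and 0 called by edgeR. Among all 14173 genes tested in both populations, 7520 were higher in Plcg1-/- B cell progenitors. An unadjusted p of at most 0.05, in either direction, was seen there for 1490 of 15001 genes by edgeR. B cell progenitor libraries are not independent of the CLP libraries if, as the shared codes were read, both come from the same mice. With PLCgamma2 absent, 6 of the 10 were higher in double-deficient than in Plcg2-/- CLPs and 4 of the 8 were lower. The difference between these shares was not tested. Double-deficient CLPs were higher than Plcg2-/- CLPs at 7273 of all 15209 genes, with 1147 at an edgeR unadjusted p of at most 0.05. Across these genes the log2 fold changes of both CLP comparisons had a Pearson correlation of 0.07. Over all genes, edgeR called 9 of 15001 in B cell progenitors (0.06%) and 8 of 15209 in double-deficient over Plcg2-/- CLPs (0.0526%), or 26 with the replicate number as a block. With the Y-linked and X-inactivation genes left out of the fits, the calls without a block were 0 and 1. The interaction with PLCgamma2 was called at 3 genes (0.0197%), which were Gm5801, BC002163 and Serinc3. The effect of PLCgamma1 loss in CLPs differed from that in B cell progenitors at 0 of 17212 genes (0%) by edgeR with the code shared by both populations as a block, where 380 had an unadjusted p under 0.05, and at 0 genes by DESeq2.

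**Figure D3:**
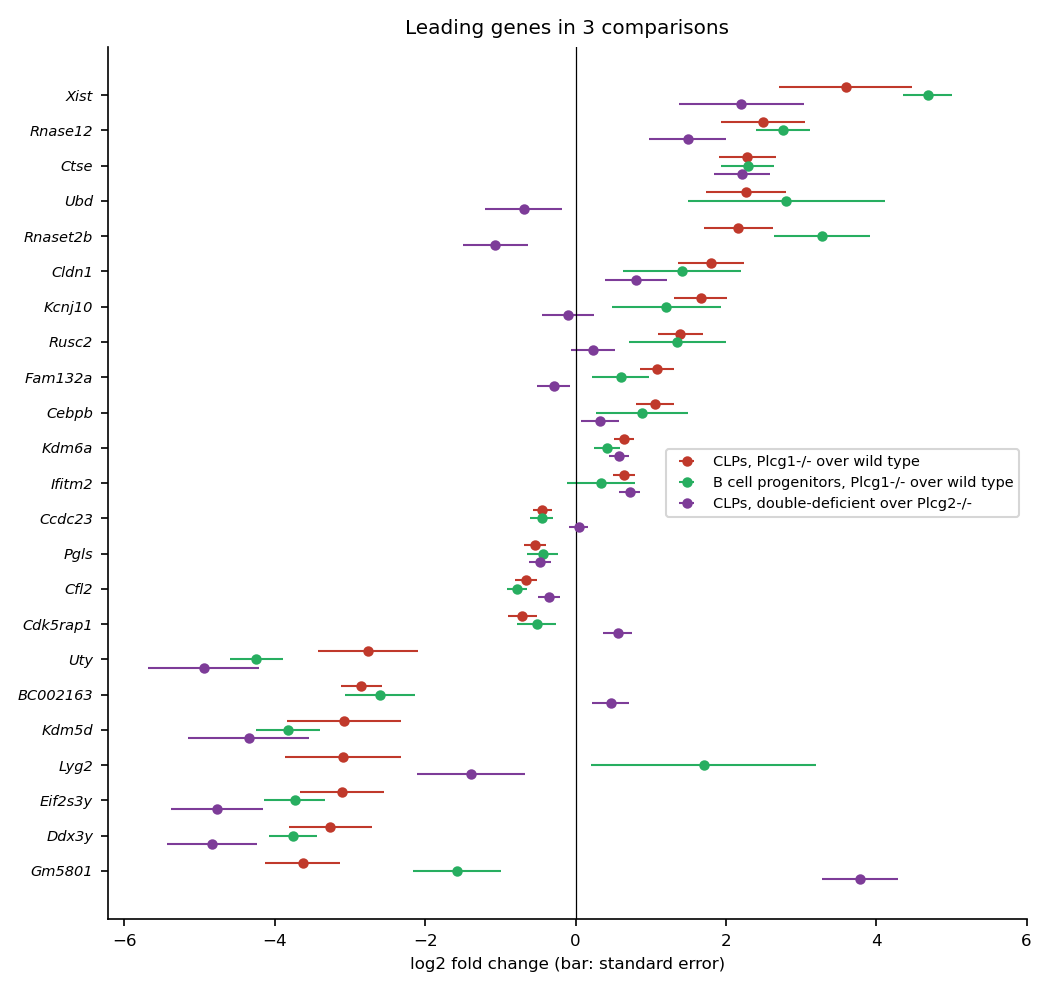
Log2 fold change with its standard error (horizontal axis) of the leading genes described in the text, in Plcg1-/- over wild-type CLPs (red), in Plcg1-/- over wild-type B cell progenitors (green) and in double-deficient over Plcg2-/- CLPs (purple). The red values chose the genes; Ctse stands near 2.2 to 2.3 in each comparison, whereas BC002163 and Gm5801 change side in the purple one.

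Sex-linked transcripts divided the libraries by genotype. Xist, the RNA that silences an X chromosome in female cells, had 81.1, 23.5 and 339 normalised CPM in wild-type and 1837, 2248 and 1309 in Plcg1-/- CLPs. The 4 Y-linked genes together had 318, 265 and 253 in wild type and 33.8, 12.5 and 50.3 in Plcg1-/- CLPs. No library of one group reached the range of the other, and log2 fold changes were 3.59 for Xist and -3.26 to -2.76 for the Y-linked genes (smallest edgeR adjusted p = 0.346). Of 7 X-linked genes that can escape silencing, 7 had a log2 fold change above 0, among them the histone demethylase Kdm6a at 0.65 and the translation initiation factor Eif2s3x at 0.45, with unadjusted p of 0.000552 and 0.00577 and 0 called. The labels give no sex, and PLCgamma1 loss and the sex of the donor cells cannot be told apart in these 6 libraries, nor in the 2 other comparisons. Without the Y-linked and X-inactivation genes in the fit, BC002163 was still the 1 gene called in CLPs. In B cell progenitors 0 were then called (1602 at an unadjusted p under 0.05, and 29 by DESeq2 with those genes kept). Ctse and Rnase12 kept log2 fold changes of 2.27 and 2.74 in that B cell progenitor fit (edgeR adjusted p = 0.167 and 0.0851).

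Counts over the whole Plcg1 gene did not separate the genotypes. Plcg1 had 107, 112 and 100 normalised CPM in wild-type and 70.4, 136 and 111 in Plcg1-/- CLPs, a log2 fold change of -0.00 (SE 0.26). The lowest and the highest of the 6 values were both in Plcg1-/- libraries. The deposited values are sums over the gene, so a loss of some exons could not be looked for. The reason for the unchanged sum was not tested, and the genotype was taken from the labels. The study reported from western blots that YFP in marrow cells of such recipients went closely with PLCgamma1 deletion. The sort it gives for the CLPs sequenced names no YFP gate. Plcg2 had 196, 279 and 220 against 202, 226 and 233, a log2 fold change of -0.07 (SE 0.16). The other phospholipase C genes gave no called change: of 14 isoforms tested, 8 had a log2 fold change above 0, where 48.1% of all genes did, and the lowest p was that of Plcb3 (0.41, edgeR unadjusted p = 0.0571).

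Genes around Plcg1 were examined because a targeted allele carries its flanking chromosome with it. Within 5 Mb on either side, 101 of 166 genes were tested. The myosin light chain gene Myl9 (log2 fold change 1.30) and Elmo2, a regulator of Rac (0.45), were higher at an unadjusted p under 0.05, 0 genes were lower at that p, and 0 were called. Of the 101 genes 36 had a log2 fold change above 0, against 48.1% of all genes, and the median was -0.05. Serinc3, a multipass membrane protein gene 2.85 Mb away, lay between 1134 and 1522 normalised CPM in wild-type and between 1210.0 and 1236 in Plcg1-/- CLPs, with a log2 fold change of -0.16. It was 1737 to 2073 in Plcg2-/- CLPs and 261 to 429 in double-deficient ones, where it fell with a log2 fold change of -2.57 (edgeR adjusted p = 0.000558). Genes beside Serinc3 moved in both directions in that comparison. The log2 fold changes were -2.35 for 0610039K10Rik and -1.52 for Pkig, against 1.24 for Ttpal and 0.93 for Ada. Their edgeR adjusted p-values were 0.106, 0.258, 0.462 and 0.611. The cause was not tested.

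Downstream of PLCgamma, both second messenger branches were examined, with 0 genes called in either. In the diacylglycerol branch (protein kinases C and D, RasGRP proteins and diacylglycerol kinases) 13 of 22 genes had a log2 fold change above 0, with a median of 0.07. Prkcd, a protein kinase C isoform, had 248, 326 and 339 normalised CPM against 369, 400 and 346, and Rasgrp4, a Ras activator of myeloid cells, 22.2 at most against 23.3 at least. The genotypes did not overlap for either gene, with log2 fold changes of 0.29 and 0.48 (unadjusted p = 0.136 and 0.124 from edgeR). These were the 2 of 22 genes so separated. Over all genes 3.04% were higher and 3.29% lower without overlap. In the inositol trisphosphate, calcium and NFAT branch 13 of 19 were above 0, with a median of 0.08. Orai1, the pore of the store-operated calcium channel, was the 1 gene of this branch at an unadjusted p under 0.05, with 27.8, 23.2 and 27.3 against 29.5, 36.8 and 41.1 (log2 fold change 0.45, edgeR unadjusted p = 0.0264, adjusted p = 1).

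IL-7 receptor and mTOR genes were also without a called change. Il7r had 355, 429 and 238 normalised CPM in wild-type and 136, 426 and 275 in Plcg1-/- CLPs, a log2 fold change of -0.29 (SE 0.55), and the groups overlapped. Of 18 genes of IL-7 receptor signalling 11 had a log2 fold change above 0, with a median of 0.10, and 0 of them reached an unadjusted p of 0.05. Stat5a and Stat5b, the transcription factors of the pathway, had log2 fold changes of 0.22 and 0.19. Of 22 genes of the mTOR complexes and their regulators 6 were above 0, and the median was -0.04. Rptor, the scaffold of complex I of mTOR, and Rictor, that of complex II, had log2 fold changes of -0.25 (SE 0.19) and 0.14 (SE 0.19).

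The libraries differed in composition within each genotype. The gate for CLPs used lineage markers and IL-7R, without Flt3 or c-Kit. In bulk samples fewer cells of a type and less RNA per cell cannot be told apart. Wild-type replicate 1 and Plcg1-/- replicate 2 stood apart from the other 4 libraries. They held 2841 and 5302 normalised CPM of the basophil protease gene Prss34 against 268 to 700 in the others, 1212 and 2122 of Mcpt8 against 96.7 to 268, and 735 and 438 of the CLP receptor gene Flt3 against 25.6 to 83.3. The 8 basophil and mast cell genes, a list added after the values were seen, were summed to 5390.3 and 10333 in these libraries and to 506 to 1332 in the others. The same libraries had the 2 lowest sums of 20 B lineage genes, at 1816 and 2917 against 4523 to 9478 elsewhere. They also had the 2 highest sums of 10 CLP markers, at 4360 and 3714 against 1516 to 2489. Their sums of 14 stem and multipotent progenitor genes were the highest too, at 961 and 1509 against 183 to 502. As 1 such library was in each genotype, results that rest on them are given with and without both.

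**Figure D4:**
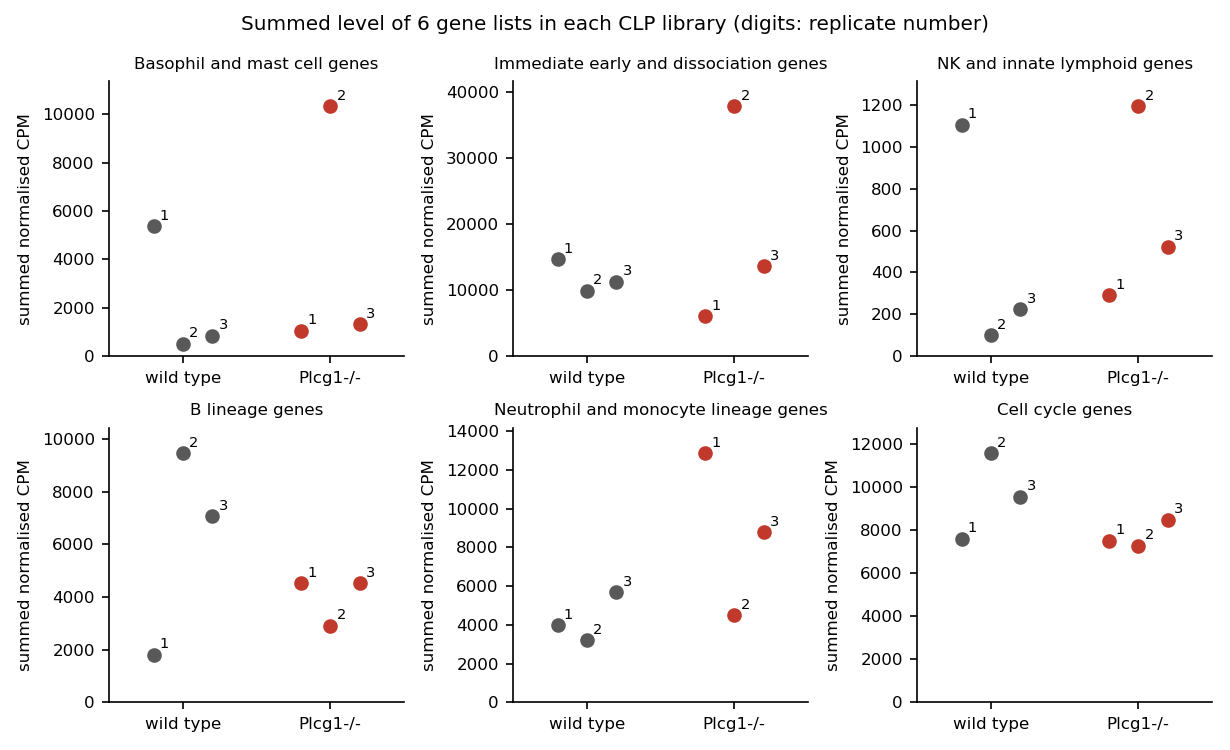
Summed normalised CPM (vertical axis, linear from 0) of 6 gene lists in the 3 wild-type (grey) and 3 Plcg1-/- (red) CLP libraries, with digits for the replicate number. Wild-type replicate 1 and Plcg1-/- replicate 2 are the highest of their genotypes for basophil and NK genes and the lowest for B lineage genes, while neutrophil and monocyte genes are highest in Plcg1-/- replicates 1 and 3.

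CLP markers were present in every library but not even. Il7r lay between 136 and 429 normalised CPM, Dntt, the terminal transferase of lymphoid progenitors, between 130 and 1681, and Rag1, which starts antigen receptor rearrangement, between 178 and 745. Of 10 CLP markers 2 had a log2 fold change above 0, with a median of -0.21, and 5 of 10 with a median of 0.04 without both libraries named above. Of 16 transcription factors of lymphoid specification 5 were above 0 and the median was -0.29. Tcf12, an E protein that pairs with Tcf3, had 169, 253 and 204 against 148, 148 and 149, and was the 1 factor at an unadjusted p under 0.05 (log2 fold change -0.49, edgeR unadjusted p = 0.0172, adjusted p = 1). Ebf1 spanned 100 to 770 and overlapped between genotypes, with a log2 fold change of -0.67 (SE 0.61), and Notch1 had a log2 fold change of -0.01.

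B lineage genes had lower values in Plcg1-/- CLPs without a test being passed. Of 20 genes 18 had a log2 fold change below 0, with a median of -0.53, and 0 of 20 reached an unadjusted p of 0.05. Blk, a Src family kinase of B cells, had 98.3, 272 and 130 normalised CPM in wild-type and 125, 110 and 82.3 in Plcg1-/- CLPs (log2 fold change -0.65, SE 0.33). The groups overlapped. Without both libraries that stood apart, 18 of 20 were again below 0 and the median was -0.86, but it was -0.09 without wild-type replicate 2. In the B cell progenitors 18 of 20 were below 0 as well, with a median of -0.49, and in double-deficient over Plcg2-/- CLPs 13 of 20 were above 0, with a median of 0.45. Ccr7, a chemokine receptor 1 of 14 homing and adhesion receptors, had 39.0, 53.7 and 72.2 against 38.6, 38.3 and 23.6 (log2 fold change -0.72, edgeR unadjusted p = 0.021, adjusted p = 1).

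Neutrophil and monocyte genes had higher values. Of 18 genes 18 had a log2 fold change above 0, from 0.51 to 1.17 with a median of 1.01, and 0 were called. Mpo, the myeloperoxidase of neutrophil granules, had 1499, 1227 and 1712 normalised CPM in wild-type and 4188, 1531 and 3086 in Plcg1-/- CLPs, a log2 fold change of 0.99 (SE 0.46, edgeR unadjusted p = 0.0548). Elane, neutrophil elastase, had 274, 246 and 391 against 1178, 242 and 636 (log2 fold change 1.17, SE 0.59). In both genes Plcg1-/- replicates 1 and 3 were above all wild-type libraries and replicate 2 was not. Fcgr3, an Fc receptor, was the 1 member at an unadjusted p under 0.05 (0.90, edgeR unadjusted p = 0.0287, adjusted p = 1). The median lay between 0.58 and 1.30 over the alternatives. It was 1.13 without both libraries that stood apart, 0.95 in B cell progenitors (18 of 18 above 0) and 0.09 in double-deficient over Plcg2-/- CLPs (11 of 18). Of 12 macrophage genes tested 12 were above 0 with a median of 0.50, but 7 of 12 with a median of 0.08 without those libraries. Their levels were low, with sums of 89.5 to 168 in wild-type and 178 to 210 in Plcg1-/- libraries, and Vcam1 and C1qb reached an unadjusted p of 0.05. The part of such cells in the other differences was not tested.

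Cell cycle genes had lower values, none of them called. Of 27 genes 24 had a log2 fold change below 0, with a median of -0.30, 7 of them at an unadjusted p under 0.05, and 8 of 27 were lower in all 3 Plcg1-/- libraries than in all wild-type ones. Over all genes 1.32% were lower at that p and 3.29% were lower without overlap. The 7 included Mcm7, Mcm2, Mcm4 and Mcm5, subunits of the replicative helicase, and Pcna, the sliding clamp of DNA polymerases. The others were Tyms, thymidylate synthase, and Ccne1, a cyclin of S phase entry. Mcm7 had 402, 519 and 445 normalised CPM against 351, 338 and 371 (log2 fold change -0.37, SE 0.12, edgeR unadjusted p = 0.00941, adjusted p = 1). Pcna had 403, 620 and 531 against 367, 340 and 380 (log2 fold change -0.51, SE 0.21, edgeR unadjusted p = 0.0335). For both genes all Plcg1-/- values lay under the lowest wild-type value. The proliferation marker Mki67 overlapped, with 977 to 1825 against 1122 to 1459. The list's median lay between -0.57 and -0.12 over the alternatives. It was -0.43 without both libraries that stood apart, with 24 of 27 below 0, -0.36 in B cell progenitors and 0.08 in double-deficient over Plcg2-/- CLPs.

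**Figure D5:**
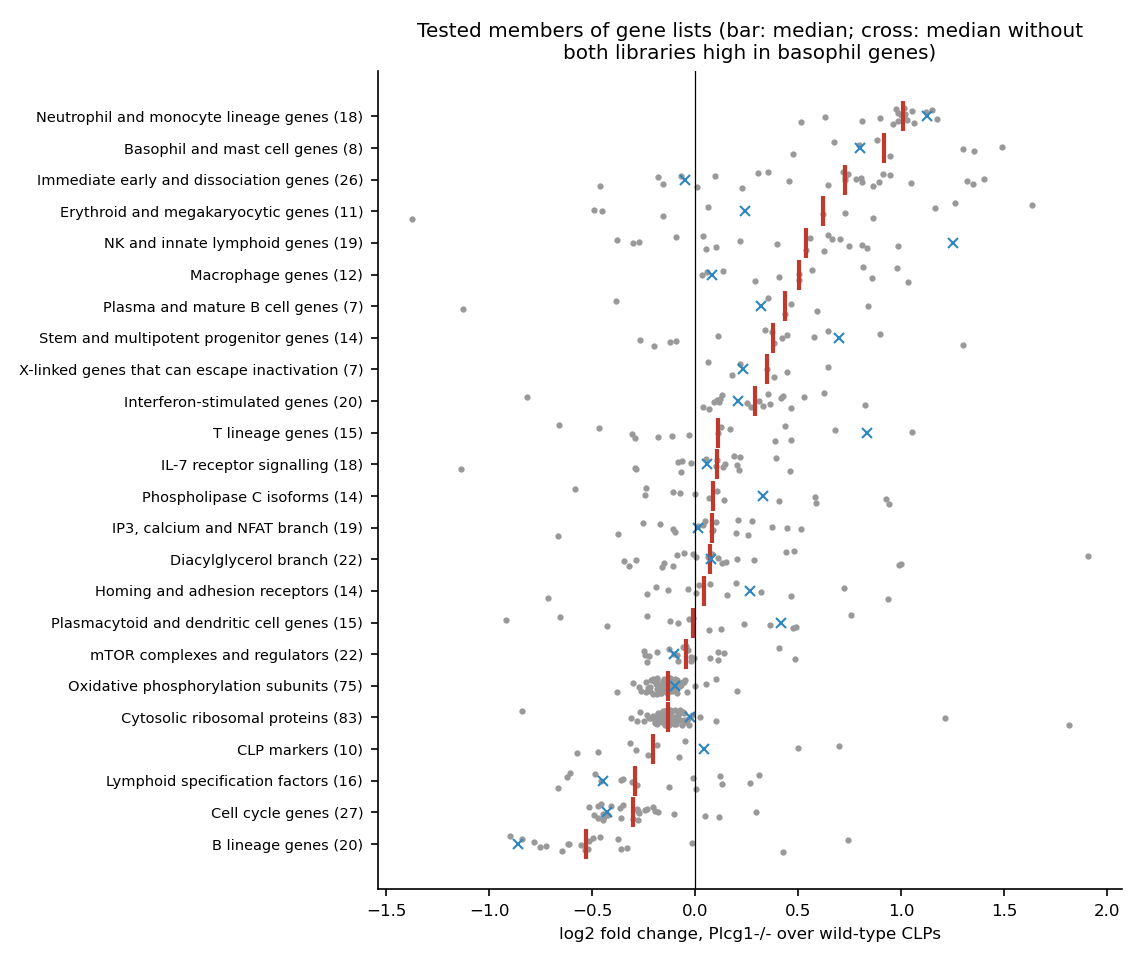
Log2 fold change of Plcg1-/- over wild-type CLPs (horizontal axis) for the tested members of 24 gene lists, ordered by median; grey points are genes, numbers in brackets give the genes tested, red bars mark the medians and blue crosses the medians without both libraries high in basophil genes. Neutrophil and monocyte genes lie to the right (median 1.01) and B lineage and cell cycle genes to the left (-0.53 and -0.30) with and without those libraries, while the immediate early genes move from 0.73 to -0.05.

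Some list medians hung on the libraries that stood apart. Immediate early and dissociation genes had 22 of 26 members above 0 and a median of 0.73. Their summed level was 9883 to 14661 normalised CPM in wild type, and 6075, 37773 and 13549.5 in Plcg1-/- CLPs, the highest being replicate 2. Without both libraries 12 of 26 were above 0 and the median was -0.05. Interferon-stimulated genes, of interest because the Mx promoter answers to interferon, had 19 of 20 above 0 with a median of 0.29, 15 of 20 and 0.21 without those libraries, and the DNA sensor gene Zbp1 as the 1 member at an unadjusted p under 0.05. NK and innate lymphoid genes had 15 of 19 above 0 (median 0.54), and 19 of 19 (median 1.26) without the libraries, but the median was -0.37 without Plcg1-/- replicate 2 alone and 1.82 without wild-type replicate 1 alone. T lineage genes had 8 of 15 above 0 (median 0.11) and 12 of 15 (median 0.84) without them, with a median of -0.27 without wild-type replicate 2. Stem and multipotent progenitor genes had 10 of 14 above 0 (median 0.38), erythroid and megakaryocytic genes 7 of 11 (0.62), plasma and mature B cell genes 5 of 7 (0.44), homing and adhesion receptors 9 of 14 (0.05), and plasmacytoid and dendritic cell genes 7 of 15 (-0.01). Without both libraries, stem and multipotent progenitor genes had 14 of 14 above 0 (median 0.70). Plasmacytoid and dendritic cell genes then had 12 of 15 (0.42), and homing and adhesion receptors 8 of 14 (0.27). Erythroid and megakaryocytic genes had 7 of 11 (0.24), and plasma and mature B cell genes 5 of 7 (0.32). None of these lists had a called gene.

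Highly expressed housekeeping groups showed small differences of mostly one sign. Of 83 cytosolic ribosomal protein genes 79 had a log2 fold change below 0, with a median of -0.13, and of 75 oxidative phosphorylation subunits 72, with a median of -0.13. Without both libraries that stood apart 35 of 83 and 15 of 75 were above 0, and the medians were -0.03 and -0.10. The ribosomal genes at an unadjusted p under 0.05 were Rpl10l and Rpl39l, weakly expressed paralogs with higher values in Plcg1-/- CLPs. Rplp0, a protein of the ribosomal stalk and 1 of the most abundant members, had 2252, 2449 and 2176 against 2120.3, 1787 and 2069. All Plcg1-/- values were lower, with a log2 fold change of -0.20 (SE 0.12, edgeR unadjusted p = 0.116).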

How the data were processed

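CLPs and B cell progenitors of 4 genotypes were profiled by RNA-seq of poly(A) RNA, with 3 recipients per genotype. The authors aligned reads to mm10 (RefSeq) with STAR (version 2.5.0a per the submitters' processing notes) through BaseSpace and deposited raw counts of reads for 24421 gene symbols per library, without normalization. The counting program is not given in the sources used here. Reads on no feature (22.2% to 33.8% of the reads in the 6 libraries) and ambiguous reads (1.19% to 1.39%) were left out. Reads on genes ranged from 4291310 to 33219995 in wild-type and from 9837850 to 22518025 in Plcg1-/- CLPs, and intervals from such depths cover counting error only. Groups came from the labels.

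Differential expression was computed from the deposited counts in R 4.3.3 with edgeR 4.0.16 (TMM, filterByExpr, glmQLFit, glmQLFTest, Benjamini-Hochberg adjustment), in 1 fit of the 12 CLP libraries with no covariate. The authors used DESeq2, which here (version 1.42.0) was an alternative. Calls needed an adjusted p not above 0.05 and a log2 fold change of 0.5 or more in size. Normalised CPM are reads scaled to a common library size after TMM. Named were Plcg1 and Plcg2, genes called by edgeR or DESeq2, the 12 genes in each direction with the smallest p among non-overlapping genes, of each list the gene with the smallest p and the 3 with the highest level, a set of genes from the study (among them Il7r, Stat5a, Ccr7, Blk, Rptor and Rictor), sex-linked genes, neighbours of Plcg1 and near-identical copies. A gene that the rule also named is counted but not reported here. Further list members were named as examples after their values were seen. The members and lists were chosen with earlier results of these data known.

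The replicate number was taken to pair samples where every same-numbered pair correlated above 0.1 in its deviations from the group means, which held in double-deficient and Plcg2-/- CLPs (0.330 to 0.610), as a sign from the data alone. CLP and B cell progenitor libraries with the same code in their titles were treated as 1 mouse. Within wild-type and within Plcg1-/- CLPs no library repeats another: between replicates chi-square over its degrees of freedom was 13.3 to 135. Other pairs of libraries were not compared in this way. The fits were tested on simulated counts with 200 changed genes, where edgeR made 5 false calls among 14808 genes and DESeq2 32. With no gene changed edgeR made 0 and DESeq2 13. Each setting was 1 draw, with genes drawn independently and dispersions from edgeR. Alternatives were RLE size factors, no filter, adjusted p alone, DESeq2, thinned counts, the replicate number as a block, fits of 6 libraries alone, fits without sex-linked genes, and fits that drop single libraries. Positions are those of GENCODE M21 (GRCm38), in which 23334 symbols have 1 position. Figures were drawn with matplotlib 3.10.9.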

Additional observations from a re-analysis of the deposited data

Results flagged for a closer look

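The effect of PLCgamma1 loss in CLPs differed with the PLCgamma2 genotype at 3 genes by the interaction term of edgeR's quasi-likelihood fit (Benjamini-Hochberg corrected). For Gm5801 the log2 fold change was 7.41 higher without PLCgamma2 than with it (adjusted p = 0.00548). For BC002163 it was 3.32 higher (adjusted p = 0.00851). Both are processed pseudogenes, and the number of donors per genotype is not given in the sources used here. For Serinc3, 2.85 Mb from Plcg1, the difference was -2.40 on the log2 scale (adjusted p = 0.00851), with 1210.0 to 1236 normalised CPM in Plcg1-/- and 261 to 429 in double-deficient CLPs. Genes beside Serinc3 also moved in double-deficient over Plcg2-/- CLPs, as given above. Serinc3 and those genes were named after their values were seen.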

How the results depend on the processing

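In Plcg1-/- over wild-type CLPs, 1 gene was called in the fit described and under RLE size factors, no filter, adjusted p alone, the replicate block and the fit without sex-linked genes. With DESeq2 16 genes were called on the same libraries and 7 on the 6 libraries alone, while edgeR called 0 on the 6 libraries alone, 0 on thinned counts and 0 without both libraries high in basophil genes (1321 at an unadjusted p of at most 0.05), a choice made after seeing the data. Leaving out each library in turn gave 0 to 2 calls, 0 without Plcg1-/- replicate 2 or 3 and 2 without wild-type replicate 3. In B cell progenitors 9 calls became 29 with DESeq2 and 0 without sex-linked genes, and 6 to 8 with each library left out. For double-deficient over Plcg2-/- CLPs 8 calls became 13 without a filter, 104 with DESeq2, 1 without sex-linked genes, 0 on 6 libraries alone, and 1 to 18 with each library left out, the highest without double-deficient replicate 1. For the interaction 3 calls became 29 with DESeq2, 1 on thinned counts and 1 to 4 with each library left out, the lowest without Plcg2-/- replicate 1 or double-deficient replicate 3. Same-numbered wild-type and Plcg1-/- CLP libraries had correlations of deviations of -0.261 to 0.327, so the numbers were not taken to pair these samples. Over all 4 genotypes the correlations ran from -0.265 to 0.713. The replicate block gave 1 call in Plcg1-/- over wild-type CLPs, with 990 genes in place of 434 at an unadjusted p of at most 0.05, and 9 for the interaction. In double-deficient over Plcg2-/- CLPs, where the numbers were taken from these data alone to pair the samples, it gave 26.

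Among single genes, Jun turned to -0.10 and Zfp36 to -0.0048 without both libraries high in basophil genes. With each library left out, log2 fold changes spanned -0.61 to 2.69 for Gata2, -0.16 to 2.48 for Hdc, -0.48 to 2.46 for Itga2b, -0.41 to 1.26 for Jun and -0.21 to 1.15 for Zfp36, the lowest being without Plcg1-/- replicate 2, and that of Lyg2 in B cell progenitors spanned -1.19 to 3.40. Values within 1 standard error of 0 changed sign 94 times in 41 genes and comparisons and were not counted as reversals. The cause was not tested.

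Among the list medians that moved beyond the spread between libraries without wild-type replicate 1 were those of CLP markers (0.59), homing receptors (0.49) and cell cycle genes (-0.57), and without Plcg1-/- replicate 2 those of immediate early genes (-0.22), the diacylglycerol branch (-0.11), basophil genes (-0.95) and erythroid genes (0.01). Without Plcg1-/- replicate 2 the median of NK genes was -0.37, and without wild-type replicate 2 those of B lineage and T lineage genes were -0.09 and -0.27. Depth limits Gm5801 and other genes with under 10 reads in a library.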
